A study of Homo sapiens with 9 samples.

Results

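The genes described here were chosen as the expression changes that 2 stress-tolerant cell lines had in common. Of 36018 genes listed, 17902 had enough counts to be tested, and 415 met the rule: 166 were higher and 249 lower in both tolerant lines than in the control. A gene was taken as shared where its CPM (read counts scaled to a common library size) in all 6 tolerant libraries lay above, or in all 6 below, all 3 control libraries. It also needed a mean of at least 5 CPM on the higher side and a mean in each tolerant line at least 2-fold from the control mean, in the same direction. The rule selected 0.927% of the genes tested as shared higher and 1.39% as shared lower. Because the members were selected on their difference from control, that difference is described below and carries no test. Counts of listed genes that rose or fell come from tests against control and are likewise a description. For the members, only the difference between the tolerant lines is read as a test. The rule did not compare these lines, but its minimum of 5 CPM was taken over all 6 tolerant libraries, so a higher member could meet it through 1 line.

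All libraries were labelled HCT-15, an established human colorectal adenocarcinoma line, with genotype WT, grown in RPMI1640 with 10% fetal bovine serum. The control group (3 libraries) had no treatment. The CoCl2 group (3 libraries) came from HCT-15-CoCl2, a line kept in rising amounts of cobalt chloride, a salt that mimics hypoxia, until it tolerated the agent. The low glucose group (3 libraries) came from HCT-15-Lowg, a line derived in the same way under low glucose, which deprives cells of fuel and of sugar for protein glycosylation. Each tolerance is thus represented by 1 derived line, and a change shared by the lines cannot be told apart from one brought by prolonged selective culture of any kind. Nothing in the labels ties the 3 libraries of a group to different cultures. The p-values therefore reflect how far these libraries scatter, which may be technical scatter alone.

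Several stress programmes recur in the shared genes. In the integrated stress response (ISR), kinases that sense misfolded protein in the endoplasmic reticulum (ER), amino acid shortage or heme shortage phosphorylate a translation initiation factor. General protein synthesis falls, while the transcription factor ATF4 is translated and switches on amino acid transport and synthesis, the factor DDIT3 (CHOP) and a feedback phosphatase subunit. In the oxidative stress response, NRF2 escapes its inhibitor KEAP1 and induces glutathione synthesis, heme breakdown and iron storage. The p53 programme arrests the cell cycle through CDKN1A and can trigger apoptosis through BBC3 (PUMA) and PMAIP1 (NOXA).

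Library totals ranged from 25178615 to 32674687 counts, at which 3 counts corresponded to 0.0918 to 0.119 CPM before scaling. The mitochondrial share of counts was 8.08 to 9.80% in control and 4.64 to 6.67% in tolerant libraries of either kind. The share of ribosomal protein genes ran from 3.14 to 3.26% in control through 3.87 to 4.75% (CoCl2) up to 6.46 to 9.68% (low glucose). Low-glucose-tolerant replicate 2 stood apart from its group on the second principal component (-19.9, against -0.73 and 1.59), and 159 of the 166 higher and 245 of the 249 lower members met the rule without it. Of 24 intestinal epithelium markers with a row, 19 had a mean under 1 CPM in every group, so the markers that would define the labelled tissue were largely absent. The summed level of the listed fibroblast markers was 2493 to 2534 CPM in control, 645 to 752 CPM in CoCl2-tolerant and 158 to 200.004 CPM in low-glucose-tolerant libraries. This sum was mostly COL1A1 in control, and the markers did not all fall. Of the 7 tested, 0 rose and 3 fell in the CoCl2-tolerant line (median log2 fold change -1.37). In the low-glucose-tolerant line 1 rose and 2 fell (median 0.19). Of the endothelial markers with a row, 7 of 7 had a mean under 1 CPM in every group, as had 8 of 10 leukocyte markers.

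Targets of the ISR made up the largest listed group among the shared genes. Of 36 ISR and ATF4 target genes tested, 19 were shared higher and 0 shared lower. CHAC1, an enzyme that degrades glutathione, had 5.39, 5.58 and 6.45 CPM in the control libraries, 50.6, 37.5 and 40.6 CPM in the CoCl2-tolerant libraries and 39.3, 34.2 and 48.4 CPM in the low-glucose-tolerant libraries. The libraries of the tolerant lines overlapped each other and lay well above every control library, with a mean 7.38-fold the control in CoCl2-tolerant and 6.998-fold in low-glucose-tolerant cells. By the GENCODE annotation of GRCh38, CHAC1 lies at chr15:40952962-40956519, DDIT3 at chr12:57516588-57521737 and HMOX1, described below, at chr22:35380361-35394214. DDIT3, the transcription factor CHOP, had 7.89, 7.85 and 8.61 CPM in control, 38.7, 37.0 and 42.3 CPM in CoCl2-tolerant and 311, 200.1 and 327 CPM in low-glucose-tolerant libraries. Here the tolerant lines did not overlap, and every low-glucose-tolerant library was above every CoCl2-tolerant one. PPP1R15A (GADD34), the regulatory subunit of the phosphatase that reverses the ISR, had 29.9, 28.7 and 33.7 CPM in control, 151, 138 and 146 CPM in CoCl2-tolerant and 416, 424 and 494 CPM in low-glucose-tolerant libraries.

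Transporters and enzymes of amino acid supply were shared alongside these regulators. SLC7A11, the cystine importer, had 17.8, 18.6 and 17.7 CPM in control, 86.1, 116 and 113 CPM in CoCl2-tolerant and 118, 146 and 83.1 CPM in low-glucose-tolerant libraries, with the tolerant lines overlapping. SLC3A2, the heavy chain that SLC7A11 and SLC7A5 need to reach the cell surface, had 48.1, 54.2 and 50.9 CPM in control, 246, 177 and 207 CPM in CoCl2-tolerant and 465, 439.6 and 584 CPM in low-glucose-tolerant libraries. Both genes were higher in each tolerant library than in any control library, but only SLC3A2 separated the tolerant lines. SLC7A5, the light chain that imports large neutral amino acids, averaged 165 ± 0.833, 447 ± 40.5 and 638 ± 66.1 CPM (SD, n = 3 per group, in the order control, CoCl2-tolerant, low-glucose-tolerant, as in later runs of 3 means). The remaining transporters among the ISR members were the glycine transporter SLC6A9 and the glutamine transporter SLC1A5. The enzymes were PSPH of serine synthesis, MTHFD2 of mitochondrial folate metabolism, PCK2, GPT2 and the glycyl-tRNA synthetase GARS1. Further regulators among the members included ATF3, CEBPB, CEBPG, NUPR1 and TRIB3.

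The ISR list as a whole was also counted by the fit over all genes (edgeR quasi-likelihood test, adjusted p under 0.05). Of its 36 genes, 30 rose and 2 fell in the CoCl2-tolerant line, where 17.9% of all genes tested rose and 18.2% fell. In the low-glucose-tolerant line 33 rose and 1 fell, where 34.6% of all genes tested rose and 34.6% fell. These comparisons have the control libraries in common and the rule used them, so the counts are a description. The shares of all genes tested given here are the background for the genes that rose or fell in every later list. The median log2 fold change of the list was 1.08 in the CoCl2-tolerant and 2.003 in the low-glucose-tolerant line, against 0.01 and -0.01 over all genes tested. ATF4 itself averaged 309, 597 and 977 CPM in the 3 groups, and its CoCl2-tolerant mean fell short of 2-fold. The exons of DDIT3 overlap other annotated genes over 39.6% of their length, those of DDIT4 over 41.2% and those of MTHFD2 over 33.2%, and the strand setting of the counting is not given in the sources used here, so part of their counts could belong to a neighbour.

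**Figure D1:**
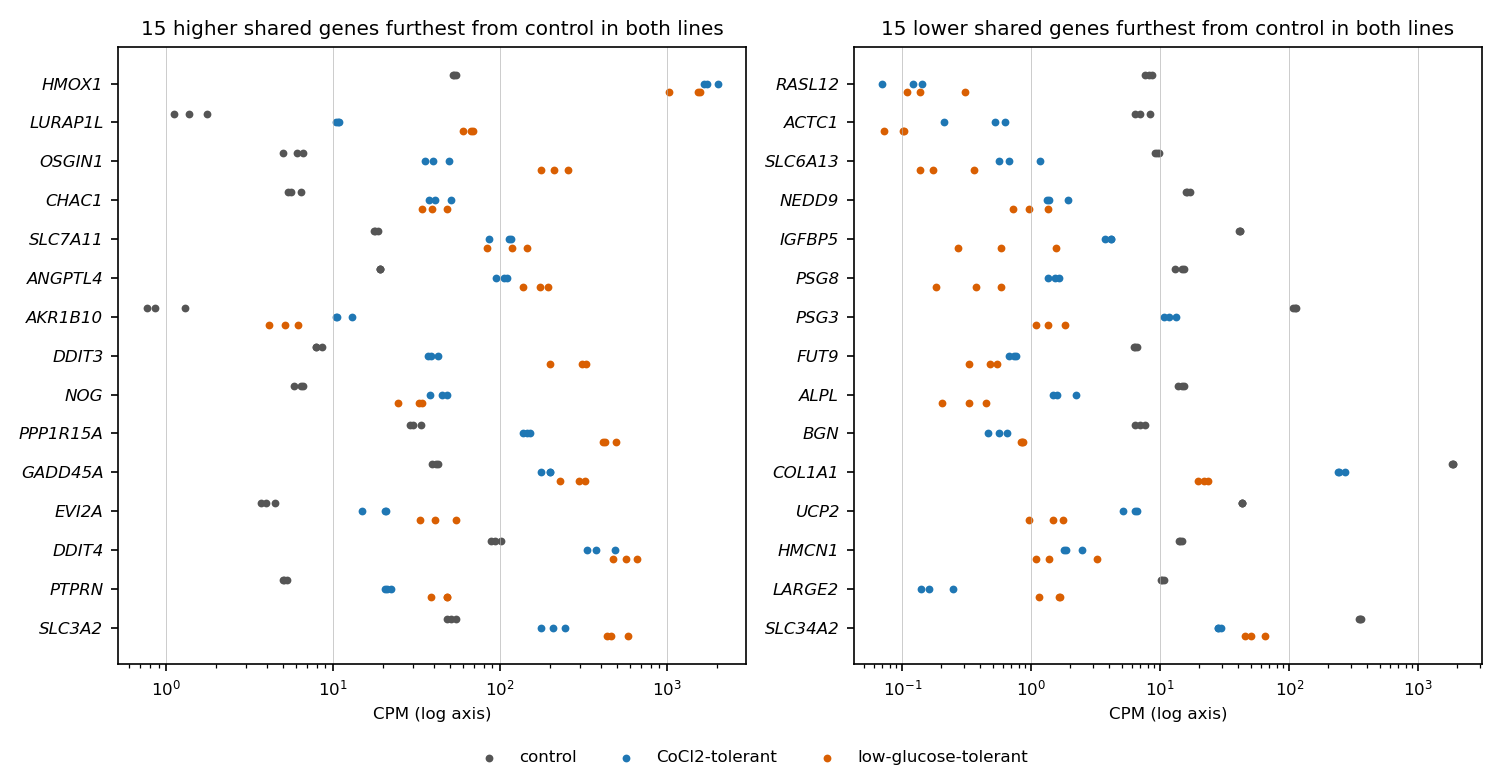
CPM on a log axis for the 15 shared higher genes (left) and 15 shared lower genes (right) with the largest smaller-of-both ratio to control; each point is 1 library, 3 per group. In each row all 6 tolerant libraries lie on 1 side of the 3 control libraries, as the rule requires, and for HMOX1 the control libraries sit at 52.5 to 54.8 CPM while the tolerant libraries sit between 1026 and 2013 CPM.

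NRF2 targets formed the next largest listed group, with 11 of 33 genes tested shared higher and 0 shared lower. SLC7A11, described above, is in this list as well as in the ISR list, so the counts are not fully separate. HMOX1, the heme oxygenase that releases iron from heme, had the largest smaller-of-both ratio to control among the higher members, at 54.8, 52.5 and 53.3 CPM in control, 2013, 1671 and 1744 CPM in CoCl2-tolerant and 1026, 1539 and 1581 CPM in low-glucose-tolerant libraries. Every CoCl2-tolerant library was above every low-glucose-tolerant one. OSGIN1, an oxidative stress-induced growth inhibitor, had 5.04, 6.08 and 6.61 CPM in control, 49.4, 35.6 and 39.6 CPM in CoCl2-tolerant and 177, 211 and 257 CPM in low-glucose-tolerant libraries, the opposite order. AKR1B10, an aldo-keto reductase, had 1.30, 0.764 and 0.857 CPM in control, 12.9, 10.4 and 10.5 CPM in CoCl2-tolerant and 4.11, 5.14 and 6.15 CPM in low-glucose-tolerant libraries. AKR1B10 has close paralogs, so its counts are uncertain where reads were shared between copies.

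The other NRF2 members covered antioxidant and iron-handling functions. TXNRD1, the thioredoxin reductase, averaged 442 ± 11.01, 1397 ± 48.1 and 1801 ± 183 CPM. NQO1, a quinone reductase, averaged 237 ± 5.53, 588 ± 35.6 and 714 ± 57.8 CPM, and GCLM, the modifier subunit of the enzyme that starts glutathione synthesis, 48.2 ± 0.45, 160.0 ± 33.4 and 128 ± 17.3 CPM. Both ferritin chains were members: the light chain FTL averaged 1549 ± 52.7, 4211 ± 323 and 5807 ± 1041 CPM. The heavy chain FTH1 averaged 529 ± 52.7, 1529 ± 479.9 and 1791 ± 418 CPM, and the members FTH1P8 and FTH1P2 are pseudogene copies of it, so their reads cannot be cleanly separated. Exons of FTH1 also overlap another gene over 62.4% of their length, so part of its counts could belong to that neighbour. SQSTM1 (p62), which carries cargo to autophagy and binds KEAP1, had 579.5, 571 and 565 CPM in control, 1859, 1785 and 1839.8 CPM in CoCl2-tolerant and 2370.3, 2859 and 2836 CPM in low-glucose-tolerant libraries. SRXN1, the sulfiredoxin, was also a member, with 85.0% of its exon length overlapping other genes. Over the whole list 26 genes rose and 0 fell in the CoCl2-tolerant line, and 22 rose and 3 fell in the low-glucose-tolerant line. NFE2L2, the gene of NRF2, averaged 196, 220.0 and 183 CPM in the 3 groups.

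Of 29 p53 target genes tested, 9 were shared higher and 0 shared lower. CDKN1A, the cyclin-dependent kinase inhibitor p21, had 181, 186 and 184 CPM in control, 514, 473 and 485 CPM in CoCl2-tolerant and 793, 890.3 and 947 CPM in low-glucose-tolerant libraries. GADD45A, a DNA damage and growth arrest protein, had 41.3, 42.4 and 38.9 CPM in control, 198, 176 and 199.9 CPM in CoCl2-tolerant and 297, 229 and 323 CPM in low-glucose-tolerant libraries. GDF15, a secreted stress cytokine, had 104, 102 and 114 CPM in control, 366, 345 and 351 CPM in CoCl2-tolerant and 833, 837 and 1021 CPM in low-glucose-tolerant libraries. For each of these genes the 3 groups did not overlap and the order was control, CoCl2-tolerant, low-glucose-tolerant. In the whole list 25 genes rose and 0 fell in the CoCl2-tolerant line, and 26 rose and 2 fell in the low-glucose-tolerant line. GADD45A, GDF15 and the BH3-only genes are also known to respond to ATF4 or CHOP.

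Members that act in cell death pointed in both directions. BBC3, a pro-apoptotic BH3-only protein, had 10.5, 10.5 and 10.6 CPM in control, 34.8, 27.8 and 32.8 CPM in CoCl2-tolerant and 62.8, 56.8 and 74.6 CPM in low-glucose-tolerant libraries. PMAIP1, another BH3-only protein, averaged 20.5 ± 1.81, 51.5 ± 5.38 and 72.3 ± 15.8 CPM, and the death receptor FAS averaged 31.4 ± 1.38, 65.3 ± 6.83 and 69.7 ± 12.04 CPM. BMF, a BH3-only protein that responds to loss of anchorage, went the other way, with 24.9, 24.6 and 24.3 CPM in control, 6.78, 6.02 and 4.66 CPM in CoCl2-tolerant and 1.43, 2.16 and 1.01 CPM in low-glucose-tolerant libraries. Of the 34 apoptosis and BCL2 family genes tested, 3 were shared higher and 1 shared lower. In the CoCl2-tolerant line 18 rose and 3 fell, and in the low-glucose-tolerant line 17 rose and 6 fell. The shares of all genes tested were 17.9% and 18.2% in the former, and 34.6% and 34.6% in the latter.

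Of 44 hypoxia-inducible factor (HIF) targets tested, 5 were shared higher (ANGPTL4, DDIT4, NDRG1, CA12 and ALDOA) and 0 shared lower. This is 11.4% of the list, where 0.927% of all genes tested were shared higher. Across the list 38 genes rose and 1 fell in the CoCl2-tolerant line, while 11 rose and 21 fell in the low-glucose-tolerant line. NDRG1, a stress-responsive growth regulator, had 116, 109 and 119 CPM in control, 575, 542 and 506 CPM in CoCl2-tolerant and 338, 423 and 377 CPM in low-glucose-tolerant libraries. ANGPTL4, a secreted inhibitor of lipoprotein lipase, had 18.97, 19.1 and 19.1 CPM in control, 110.4, 95.2 and 105 CPM in CoCl2-tolerant and 172, 138 and 193 CPM in low-glucose-tolerant libraries. CA12, a cell-surface carbonic anhydrase, averaged 31.1 ± 1.36, 92.6 ± 8.26 and 66.1 ± 7.73 CPM. NDRG1 and CA12 were thus higher in the CoCl2-tolerant than in the low-glucose-tolerant libraries, and ANGPTL4 the reverse. DDIT4 (REDD1), an inhibitor of mTORC1 that the ISR also induces, averaged 94.7 ± 6.48, 400.1 ± 81.99 and 566 ± 94.03 CPM. ALDOA, a glycolytic aldolase, was the single shared gene of 34 listed for glycolysis and glucose transport, at 10.1 ± 1.88, 21.7 ± 2.71 and 20.3 ± 2.75 CPM. Of those 34 genes, 23 rose and 5 fell in the CoCl2-tolerant line (median log2 fold change 0.85). In the low-glucose-tolerant line, by contrast, 9 rose and 21 fell (median -0.51). Exons of ALDOA overlap another gene over 53.5% of their length, so its value is uncertain.

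Promoter sequences of the stress genes are shown because members that moved together may hold the same letters. RefSeq promoter windows (GRCh38.p14, 250 bases before to 50 after the gene start) were matched by symbol for 117 of the 166 higher and 171 of the 249 lower members. The letters TGATGNAA, written for ATF4 with C/EBP partners, were searched on both strands and stood in 4 higher members (3.42%) and 1 lower member (0.585%), against 1.55% of genes with at least 5 CPM and 3.67% of all promoters in the table. TGANTCA, written for FOS and JUN proteins (AP-1), stood in 14 higher members (12.0%) and 7 lower members (4.09%), against 4.20% and 7.76%. TGACNNNGC, written for NRF2, stood in 23 higher members (19.7%) and 22 lower members (12.9%), against 15.4% and 13.6%. A match is a description of letters and not a binding site. Each stretch below runs 5′ to 3′ on the gene's strand, with the match in capitals. The stretches were picked after the shares were known.

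The first 4 are all higher members with TGATGNAA or its reverse complement, among them 3 ISR targets.
CHAC1 (chr15:40953237-40953294, plus strand): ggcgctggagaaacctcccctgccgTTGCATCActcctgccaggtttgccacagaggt
ATF3 (chr1:212565191-212565248, plus strand): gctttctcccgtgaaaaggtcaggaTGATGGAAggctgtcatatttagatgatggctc
SLC3A2 (chr11:62881711-62881748, plus strand): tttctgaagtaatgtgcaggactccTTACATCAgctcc
PLK3 (chr1:44800219-44800276, plus strand): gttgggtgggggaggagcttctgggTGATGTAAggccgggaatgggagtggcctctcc
The CHAC1 and SLC3A2 matches are on the opposite strand to the gene, and those of ATF3 and PLK3 on the same strand.

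The next stretches hold TGANTCA in members described above or below.
OSGIN1 (chr16:83953118-83953174, plus strand): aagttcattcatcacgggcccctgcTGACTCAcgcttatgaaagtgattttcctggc
DDIT3 (chr12:57520724-57520764, minus strand): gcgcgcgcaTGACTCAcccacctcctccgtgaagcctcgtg
BBC3 (chr19:47232749-47232805, minus strand): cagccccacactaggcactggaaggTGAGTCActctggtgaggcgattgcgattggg
PLAUR (chr19:43670324-43670380, minus strand): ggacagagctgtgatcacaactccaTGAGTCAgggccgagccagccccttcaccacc
CXCL8 (chr4:73740407-73740463, plus strand): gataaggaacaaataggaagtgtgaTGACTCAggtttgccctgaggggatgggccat
FAS (chr10:88990548-88990587, plus strand): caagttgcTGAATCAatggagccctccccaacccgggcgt
Of the ISR genes with TGACNNNGC, SLC3A2 and PPP1R15A are shown. Neither is in the list of NRF2 targets, and GCLM and TXNRD1 of that list held these letters but are not shown.
SLC3A2 (chr11:62881637-62881695, plus strand): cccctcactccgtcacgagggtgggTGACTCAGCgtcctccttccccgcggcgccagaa
PPP1R15A (chr19:48872217-48872302, plus strand): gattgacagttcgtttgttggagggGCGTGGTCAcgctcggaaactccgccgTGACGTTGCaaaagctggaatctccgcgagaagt
In SLC3A2 the capitals hold the AP-1 letters as well, so the motifs overlap there, and PPP1R15A holds 2 matches. TACGTG, written for HIF, stood in 9 higher members (7.69%) and 4 lower members (2.34%), against 311 of 9146 genes with at least 5 CPM and 3.33% of all promoters. ACATTCC, written for TEAD factors, stood in 1 higher member (0.855%) and 9 lower members (5.26%), against 2.13% and 3.48%.

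Further higher members were regulators of growth and secreted factors. Of 32 immediate early genes tested, 5 were shared higher and 2 shared lower. FOSL1, a FOS family subunit of AP-1, had 95.6, 86.7 and 97.1 CPM in control, 221, 237 and 223 CPM in CoCl2-tolerant and 219, 266 and 267 CPM in low-glucose-tolerant libraries, with the tolerant lines overlapping. DUSP5 and DUSP6, phosphatases that switch off ERK, were also higher, and DUSP6 averaged 4.47 ± 0.341, 10.6 ± 0.451 and 33.9 ± 4.34 CPM. EGR1, a transcription factor induced by growth signals, was lower, with 48.6, 46.1 and 52.9 CPM in control, 14.8, 16.3 and 13.6 CPM in CoCl2-tolerant and 1.53, 2.399 and 1.85 CPM in low-glucose-tolerant libraries. The nuclear receptor NR4A1 was the other lower member of that list. CCND1, the cyclin that drives entry into S phase, had 194, 197 and 194 CPM in control, 408, 449.6 and 467 CPM in CoCl2-tolerant and 489, 545 and 448 CPM in low-glucose-tolerant libraries. With CD44, a hyaluronan receptor, CCND1 made 2 shared higher genes of 22 listed for Wnt and crypt stem cells. Over that list, however, 3 rose and 12 fell in the CoCl2-tolerant line (median log2 fold change -0.46), and 6 rose and 10 fell in the low-glucose-tolerant line (median -0.26). CCND2, a related cyclin, had 3.05, 3.26 and 3.08 CPM in control, 12.1, 12.4 and 14.02 CPM in CoCl2-tolerant and 117, 123 and 108 CPM in low-glucose-tolerant libraries.

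Of 20 senescence markers tested, 3 (15.0%) were shared higher (GDF15, CDKN1A and PLAUR) and 0 shared lower, beside 0.927% of all genes tested shared higher. Across that list 6 rose and 3 fell in the CoCl2-tolerant line, and 11 rose and 9 fell in the low-glucose-tolerant line. Among all genes tested 17.9% rose and 18.2% fell in the former, and 34.6% rose and 34.6% fell in the latter. Of 50 factors of the senescence-associated secretory phenotype (SASP), 4 (8.0%) were shared higher (GDF15, ANGPTL4, PLAUR and CXCL8) and 1 shared lower (IGFBP5). CXCL8, the neutrophil-attracting chemokine interleukin-8, had 6.89, 6.73 and 5.68 CPM in control, 12.7, 18.1 and 20.02 CPM in CoCl2-tolerant and 109, 61.8 and 74.4 CPM in low-glucose-tolerant libraries. PLAUR, the urokinase receptor, averaged 30.3 ± 2.33, 65.9 ± 3.97 and 74.4 ± 10.99 CPM. These lists overlap those of p53 and HIF targets, so the counts are not separate evidence.

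Genes of the extracellular matrix were among the shared lower genes. Of 46 mesenchymal and matrix genes tested, 6 were shared lower and 0 shared higher. COL1A1, a chain of type I collagen, had 1823, 1871 and 1870.3 CPM in control, 270.0, 240.5 and 239.8 CPM in CoCl2-tolerant and 19.5, 21.7 and 23.2 CPM in low-glucose-tolerant libraries. The 3 groups were widely separated, with the control mean 7.42-fold the CoCl2-tolerant and 86.4-fold the low-glucose-tolerant mean. TAGLN, an actin-binding protein of contractile cells, had 181, 183 and 175 CPM in control, 48.9, 38.5 and 42.4 CPM in CoCl2-tolerant and 9.31, 8.396 and 12.5 CPM in low-glucose-tolerant libraries. COL4A1, a chain of basement membrane collagen, averaged 2926 ± 43.4, 1442 ± 64.6 and 308 ± 68.2 CPM. COL5A1, COL5A2 and COL12A1 were the remaining list members, so 5 of 31 collagen genes tested were shared lower and 0 shared higher. In the whole list 13 rose and 18 fell in the CoCl2-tolerant line, and 9 rose and 29 fell in the low-glucose-tolerant line. BGN, a matrix proteoglycan that is in none of the lists, had 6.98, 6.38 and 7.62 CPM in control, 0.642, 0.56 and 0.459 CPM in CoCl2-tolerant and 0.85, 0.857 and 0.832 CPM in low-glucose-tolerant libraries. COL1A1 is also a fibroblast marker and made up most of the summed fibroblast level of the control libraries given above, while 6 of the 11 fibroblast markers had a mean under 1 CPM in every group. In bulk libraries fewer cells of a type and less RNA per cell cannot be told apart, and the part of such cells in these values was not tested.

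A few epithelial genes were shared lower. Of 33 genes for junctions and keratins, 4 were shared lower (ELF3, CGN, JUP and CDH1) and 0 shared higher. CDH1, the adherens junction protein E-cadherin, had 18.3, 17.8 and 17.4 CPM in control, 1.44, 1.26 and 1.52 CPM in CoCl2-tolerant and 7.78, 9.77 and 6.88 CPM in low-glucose-tolerant libraries. The CoCl2-tolerant libraries were the lowest here, unlike those of COL1A1. ELF3, an epithelial transcription factor, had 55.1, 56.1 and 57.3 CPM in control, 13.0, 12.8 and 13.2 CPM in CoCl2-tolerant and 6.39, 5.79 and 7.601 CPM in low-glucose-tolerant libraries. JUP, the junction protein plakoglobin, averaged 238 ± 11.6, 68.8 ± 4.86 and 104 ± 12.1 CPM. Across the list 3 rose and 19 fell in the CoCl2-tolerant line (median log2 fold change -0.60). In the low-glucose-tolerant line, by contrast, 18 rose and 8 fell (median 0.37). Among all genes tested 17.9% rose and 18.2% fell in the CoCl2-tolerant line, and 34.6% rose and 34.6% fell in the low-glucose-tolerant line.

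Of 16 fatty acid synthesis genes, FASN, ACSS2 and FADS2 were shared lower and 0 shared higher, while 2 rose and 10 fell in the CoCl2-tolerant line and 1 rose and 13 fell in the low-glucose-tolerant line. FASN, the fatty acid synthase, had 810.4, 849.9 and 836 CPM in control, 365, 281 and 270.4 CPM in CoCl2-tolerant and 191, 290.0 and 213 CPM in low-glucose-tolerant libraries. ACSS2, which makes acetyl-CoA from acetate, averaged 185 ± 5.01, 69.3 ± 8.82 and 29.1 ± 2.79 CPM.

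Some growth factor and guidance genes were shared lower as well. Of 48 growth factor ligands and receptors tested, 5 were shared lower (IGFBP5, FGFR2, FGFR4, BMP4 and PDGFB) and 1 shared higher (GDF15). FGFR2, a fibroblast growth factor receptor, had 98.7, 95.7 and 99.6 CPM in control, 17.1, 16.5 and 14.7 CPM in CoCl2-tolerant and 1.09, 1.47 and 0.543 CPM in low-glucose-tolerant libraries. IGFBP5, a binding protein of insulin-like growth factors, had 41.6, 41.3 and 40.6 CPM in control, 4.13, 4.17 and 3.74 CPM in CoCl2-tolerant and 0.272, 0.583 and 1.56 CPM in low-glucose-tolerant libraries. In both genes the low-glucose-tolerant libraries were the lowest, with means of 1.03 and 0.804 CPM. Across that list 9 rose and 15 fell in the CoCl2-tolerant line, and 20 rose and 21 fell in the low-glucose-tolerant line. Among all genes tested 17.9% rose and 18.2% fell in the former, and 34.6% rose and 34.6% fell in the latter. Of 50 guidance cues and receptors, 12 rose and 23 fell in the CoCl2-tolerant line, and 14 rose and 20 fell in the low-glucose-tolerant line. SEMA5A and SLIT3 were shared lower and NTN1 shared higher. NTN1 averaged 3.87 CPM in CoCl2-tolerant and 7.98 CPM in low-glucose-tolerant libraries, so it met the minimum only through the latter. SEMA5A, a semaphorin, had 366, 386 and 362 CPM in control, 145, 162 and 163 CPM in CoCl2-tolerant and 18.7, 29.9 and 14.6 CPM in low-glucose-tolerant libraries.

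The lower members furthest from control in both lines included several with almost no counts left. RASL12, a RAS-related GTPase, had 783 counts over the 3 control libraries, 9 over the CoCl2-tolerant and 16 over the low-glucose-tolerant libraries. ACTC1, the cardiac actin, had 6.37, 8.32 and 6.95 CPM in control, 0.522, 0.63 and 0.212 CPM in CoCl2-tolerant and 0.102, 0.103 and 0.0724 CPM in low-glucose-tolerant libraries, the last from 8 counts in all. LARGE2, a glycosyltransferase of dystroglycan, had 10.2, 10.2 and 10.6 CPM in control, 0.161, 0.14 and 0.247 CPM in CoCl2-tolerant and 1.16, 1.68 and 1.63 CPM in low-glucose-tolerant libraries. SLC34A2, a sodium-phosphate cotransporter, had 353, 347 and 361 CPM in control, 27.9, 29.4 and 27.9 CPM in CoCl2-tolerant and 45.1, 64.6 and 50.4 CPM in low-glucose-tolerant libraries. LARGE2 and SLC34A2 were lower in the CoCl2-tolerant than in the low-glucose-tolerant line. UCP2, a mitochondrial carrier, averaged 42.9 ± 0.143, 6.05 ± 0.812 and 1.404 ± 0.41 CPM, and ALPL, an alkaline phosphatase, 14.5 ± 0.827, 1.76 ± 0.394 and 0.325 ± 0.121 CPM. PSG3, a pregnancy-specific glycoprotein, averaged 110.0 ± 2.68, 11.8 ± 1.31 and 1.42 ± 0.382 CPM. Its neighbour PSG8 was a member too, and the copies of this family are so alike that their reads may be shared.

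Of 45 enzymes of inositol phosphate metabolism, which the series title concerns, 1 (2.22%) was shared higher and 2 (4.44%) shared lower, beside 0.927% and 1.39% of all genes tested. ITPKA, a kinase that phosphorylates inositol trisphosphate, had 4.55, 5.08 and 4.64 CPM in control, 17.9, 13.1 and 16.6 CPM in CoCl2-tolerant and 74.4, 65.4 and 89.9 CPM in low-glucose-tolerant libraries. IMPA2, an inositol monophosphatase, had 23.4, 22.7 and 22.2 CPM in control, 8.67, 9.10 and 9.11 CPM in CoCl2-tolerant and 4.45, 4.08 and 4.78 CPM in low-glucose-tolerant libraries. PLCE1, a phospholipase that releases inositol trisphosphate, averaged 34.2 ± 0.628, 12.7 ± 1.03 and 10.9 ± 1.96 CPM. Across the list 7 rose and 13 fell in the CoCl2-tolerant line, and 16 rose and 16 fell in the low-glucose-tolerant line. The shares of all genes tested were 17.9% and 18.2% in the former, and 34.6% and 34.6% in the latter.

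Other lists had no shared gene or a single one. None of 36 ER chaperone, folding and degradation genes was shared, while 12 rose and 2 fell in the CoCl2-tolerant and 32 rose and 1 fell in the low-glucose-tolerant line. None of 40 G2/M genes was shared, while 0 rose and 10 fell in the CoCl2-tolerant and 0 rose and 39 fell in the low-glucose-tolerant line. Of all genes tested, 17.9% rose and 18.2% fell in the former and 34.6% rose and 34.6% fell in the latter. E2F2, a cell cycle transcription factor, was the single shared gene of 48 for DNA replication, at 9.25 ± 0.578, 3.75 ± 0.498 and 0.809 ± 0.278 CPM. The autophagy and lysosome list (43 genes) held SQSTM1, the drug efflux and metabolism list (35 genes) GSTO1, and the respiratory chain list (54 genes) NDUFA4L2. Each was shared higher, at 2.33%, 2.86% and 1.85% of its list, beside 0.927% of all genes tested. NDUFA4L2 averaged 4.66 CPM in CoCl2-tolerant and 13.1 CPM in low-glucose-tolerant libraries, so it met the minimum only through the latter. In all, 55 of the 166 higher and 30 of the 249 lower members belonged to at least 1 of the 24 lists.

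**Figure D2:**
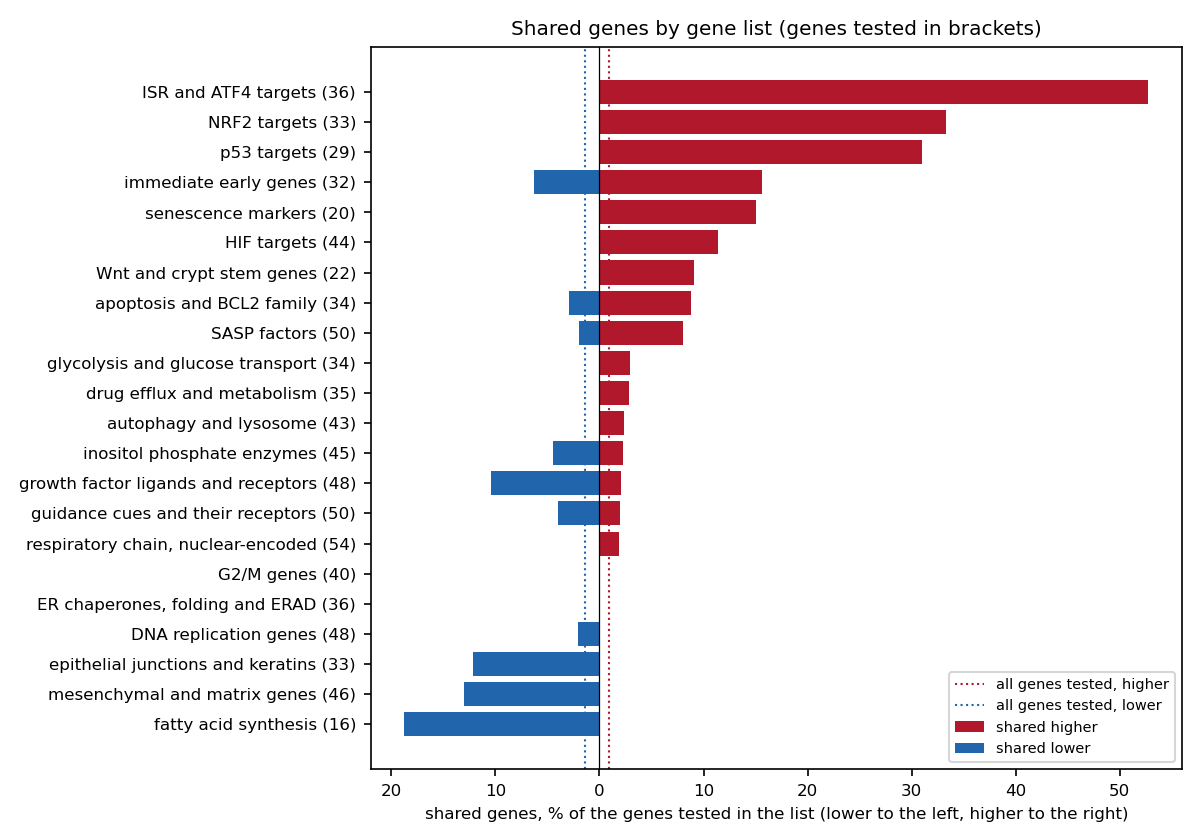
Shared higher genes (right) and shared lower genes (left) as a percentage of the genes tested in each list drawn, with the number tested in brackets; dotted lines mark all genes tested, 0.927% higher and 1.39% lower. ISR and ATF4 targets reach the furthest to the right with 19 of 36, and fatty acid synthesis the furthest to the left with 3 of 16.

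The tolerant lines were then compared with each other. Of the 166 higher members 118 differed between the lines (edgeR quasi-likelihood test, Benjamini-Hochberg adjusted p under 0.05), 104 of them higher in low-glucose-tolerant and 14 higher in CoCl2-tolerant cells. Of the 249 lower members 179 differed, 149 of them lower in low-glucose-tolerant and 30 lower in CoCl2-tolerant cells. Of all genes tested 63.9% differed, 31.9% higher in CoCl2-tolerant and 32% higher in low-glucose-tolerant cells, and of the 11545 genes with at least 5 CPM on a side 67.1% differed. The members' shares of 71.1% and 71.9% were thus near the background and are not a result about them. Of the higher members 14 had a CoCl2-tolerant mean under 5 CPM and so met the minimum only through the low-glucose-tolerant line, which favoured a difference. Of the other 152, a split made after seeing the data, 105 differed (69.1%), 91 of them higher in low-glucose-tolerant and 14 higher in CoCl2-tolerant cells. The low-glucose-tolerant mean was the further from control for 81.9% of higher members, 80.3% of the 152 and 75.1% of lower members, against 74.6% of genes with at least 5 CPM. The median ratio to control of the higher members was 2.44-fold in CoCl2-tolerant and 3.92-fold in low-glucose-tolerant cells. For the lower members the control was at the median 2.67-fold the CoCl2-tolerant and 4.38-fold the low-glucose-tolerant level. Among members, 16 higher and 41 lower were at least 4-fold from control in both lines.

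**Figure D3:**
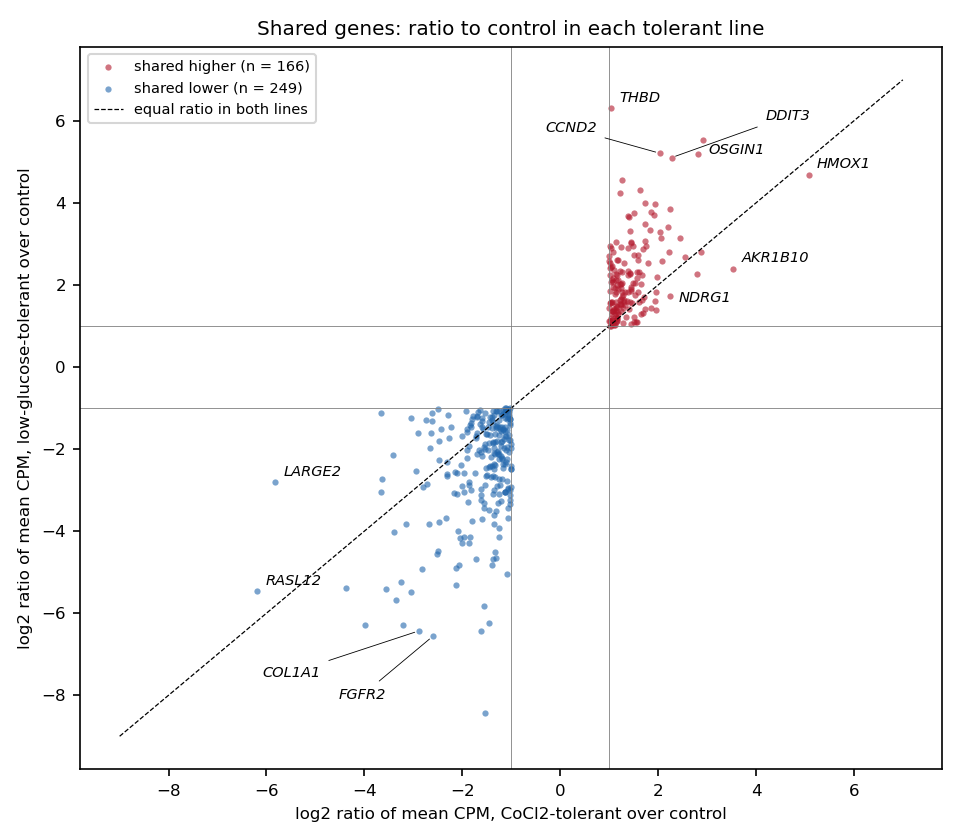
Log2 ratio of mean CPM to the control mean in CoCl2-tolerant (horizontal) and low-glucose-tolerant cells (vertical) for the 166 shared higher (red) and 249 shared lower (blue) genes; grey lines mark the 2-fold threshold and the dashed line an equal ratio. The control mean enters both axes, the corners are empty by the rule, and HMOX1 lies near the dashed line while THBD lies far above it.

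Among protein-coding higher members with at least 5 CPM in both lines, the largest differences were towards the low-glucose-tolerant line. On the log2 scale, CoCl2-tolerant over low-glucose-tolerant, CCND2 differed by -3.18 (SE 0.12, adjusted p = 5.85e-11) and DDIT3 by -2.83 (SE 0.16, adjusted p = 3.24e-09). THBD, the anticoagulant receptor thrombomodulin, had 0.552, 0.5 and 0.381 CPM in control, 1.003, 0.945 and 0.989 CPM in CoCl2-tolerant and 43.8, 34.9 and 35.5 CPM in low-glucose-tolerant libraries. Its CoCl2-tolerant mean was 2.05-fold the control at under 1 CPM. BEX2, a small adaptor protein of the BEX family, averaged 1.88 ± 0.304, 4.54 ± 0.883 and 44.1 ± 9.21 CPM, and GALNT9, which starts O-linked glycosylation, 1.28 ± 0.313, 3.01 ± 0.591 and 24.2 ± 3.07 CPM. THBD, BEX2 and GALNT9 met the minimum only through the low-glucose-tolerant line, so their values are a description with no test. Of the lower members, LARGE2 was the furthest in this direction at -2.99 (SE 0.29, adjusted p = 6.91e-07).

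In the other direction the largest differences of protein-coding members were in lower members. The long non-coding RNA IGFL2-AS1 lay beyond those given here, with 221 counts over the CoCl2-tolerant and 2 over the low-glucose-tolerant libraries, too few for a fold. FGFR2 differed by 3.95 (SE 0.21, adjusted p = 1.71e-09). NRXN3, a synaptic adhesion protein, had 37.0, 35.2 and 36.4 CPM in control, 13.5, 13.9 and 12.1 CPM in CoCl2-tolerant and 0.544, 0.685 and 0.217 CPM in low-glucose-tolerant libraries, a log2 fold change of 4.75 (SE 0.22, adjusted p = 4.88e-10). NPR3, the clearance receptor for natriuretic peptides, differed by 4.24 (SE 0.21, adjusted p = 8.44e-10), PLAC8 by 3.95 (SE 0.15, adjusted p = 1.00e-10) and COL1A1 by 3.54 (SE 0.12, adjusted p = 2.57e-11). In FGFR2, NRXN3, NPR3, PLAC8 and COL1A1 the groups were ordered control, CoCl2-tolerant, low-glucose-tolerant without overlap.

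For other members the lines were not separated by the test, and the interval bounds the difference. CHAC1 had a log2 fold change of 0.08 (95% interval -0.24 to 0.39, adjusted p = 0.664), SLC7A11 of -0.14 (95% interval -0.50 to 0.23, adjusted p = 0.497) and CCND1 of -0.16 (95% interval -0.39 to 0.06, adjusted p = 0.191). FOSL1 gave -0.14 (95% interval -0.37 to 0.09, adjusted p = 0.258), FAS -0.09 (95% interval -0.37 to 0.19, adjusted p = 0.552) and PLAUR -0.17 (95% interval -0.44 to 0.09, adjusted p = 0.224). Without low-glucose-tolerant replicate 2 PLAUR was called, at -0.29 (adjusted p = 0.0203). A missed threshold does not show that the lines were alike in these genes. HMOX1, at 33.8-fold and 25.8-fold the control, differed by 0.39 (95% interval 0.08 to 0.70, adjusted p = 0.0302), a call lost without low-glucose-tolerant replicate 1 (0.21, adjusted p = 0.124), without CoCl2-tolerant replicate 1 (0.30, adjusted p = 0.107) or when only the groups compared were fitted (0.41, adjusted p = 0.0548). AKR1B10 was the higher member furthest towards the CoCl2-tolerant line at 1.13 (SE 0.18, adjusted p = 8.06e-05), and NOG, the BMP inhibitor noggin, was also higher there at 0.53 (SE 0.14, adjusted p = 0.00376). Of the lower members, CDH1 was lower in CoCl2-tolerant cells at -2.53 (SE 0.17, adjusted p = 1.58e-08), as were SLC34A2 at -0.91 (SE 0.13, adjusted p = 2.08e-05) and JUP at -0.60 (SE 0.11, adjusted p = 3.09e-04).

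**Figure D4:**
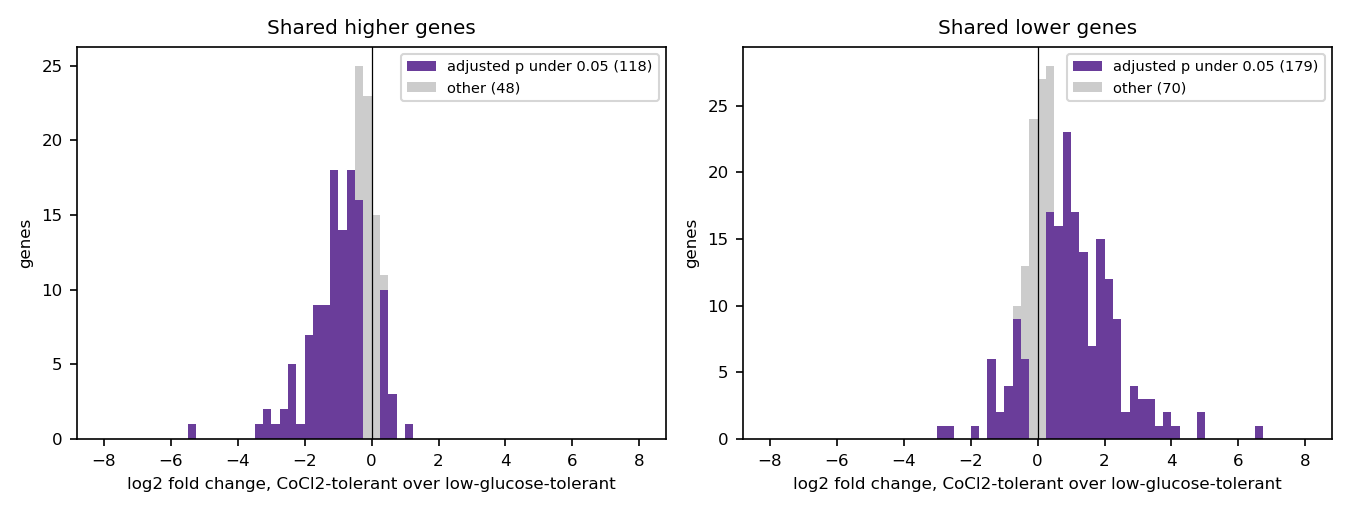
Number of shared higher (left) and shared lower genes (right) by log2 fold change of CoCl2-tolerant over low-glucose-tolerant cells, in bins of 0.25; purple marks an adjusted p under 0.05 in edgeR and grey the rest. Of the higher genes 104 of 118 called lie to the left of 0, and of the lower genes 149 of 179 called lie to the right. Among the 118 are 13 that met the minimum of 5 CPM only through the low-glucose-tolerant line, all to the left. The low-glucose-tolerant mean was the further from control for 74.6% of genes with at least 5 CPM.

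The threshold of 2-fold cut through a continuum. Just inside it among the higher members were BAG1, a co-chaperone, with its smaller ratio at 2.002-fold, PLK3 at 2.003-fold and SLC1A5 at 2.005-fold, each in the CoCl2-tolerant line. Just outside were CXCL16 at 1.999-fold and MTHFD1L at 1.998-fold in the CoCl2-tolerant line and TALDO1 at 1.998-fold in the low-glucose-tolerant line. Among lower members the nearest inside were NABP1 and FRMD4B, with control 2.002-fold and 2.003-fold the CoCl2-tolerant mean, and GPRIN2, with control 2.003-fold the low-glucose-tolerant mean. The nearest outside were KNL1, CDK15 and MPP2, with control 1.999-fold, 1.99-fold and 1.99-fold the CoCl2-tolerant mean. A threshold of 1.5-fold would have taken 693 higher and 737 lower genes, and one of 3-fold 40 and 74.

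Properties that the rule did not use differed between the sets as a description. The median transcript length was 2669 bases in higher members, 5000 in lower members and 3744 in genes with at least 5 CPM. The median GC content was 51.2%, 50.5% and 48.0%. Protein-coding genes numbered 148 of the higher and 222 of the lower members, 89.2% of each, against 93.9% of genes with at least 5 CPM. Exons overlapped another gene over at least 25% of their length in 17 higher (10.2%) and 11 lower members (4.42%). This held for 6.11% of genes with at least 5 CPM. The solute carrier family, with 283 genes tested, gave 7 higher members, of which SLC1A4, SLC1A5, SLC3A2, SLC6A9, SLC7A5 and SLC7A11 move amino acids, and 9 lower members. Zinc finger genes named ZNF, with 430 tested, gave 1 higher and 1 lower member. Over all genes tested 0.927% were higher and 1.39% lower members. No run of 3 or more members of 1 direction stood within 500 kb of each other.

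Lower members were unevenly spread over chromosomes. Chromosome 15 held 23 among 393 genes with at least 5 CPM (5.85%) and chromosome 5 held 22 among 546 (4.03%), against 2.16% over all chromosomes. The median log2 ratio to control of all genes with at least 5 CPM was -0.51 on chromosome 15 and -0.48 on chromosome 5 in the low-glucose-tolerant line, and -0.10 and -0.07 in the CoCl2-tolerant line. It was 0.72 on chromosome 7 and 0.65 on chromosome 16 in the low-glucose-tolerant line, and 0.09 and 0.11 in the CoCl2-tolerant line. Of the 45 lower members on chromosomes 5 and 15, 29 were lower in low-glucose-tolerant and 3 lower in CoCl2-tolerant cells by the direct test. Over all 249 lower members these counts were 149 and 30, so the split on these chromosomes was near that of all lower members. The part of these chromosome-wide differences in the shared set was not tested. Without genes of chromosomes 5, 7, 15 and 16, an alternative chosen after seeing the data, 138 higher and 195 lower members were left, of which 96 and 143 differed between the lines.

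**Figure D5:**
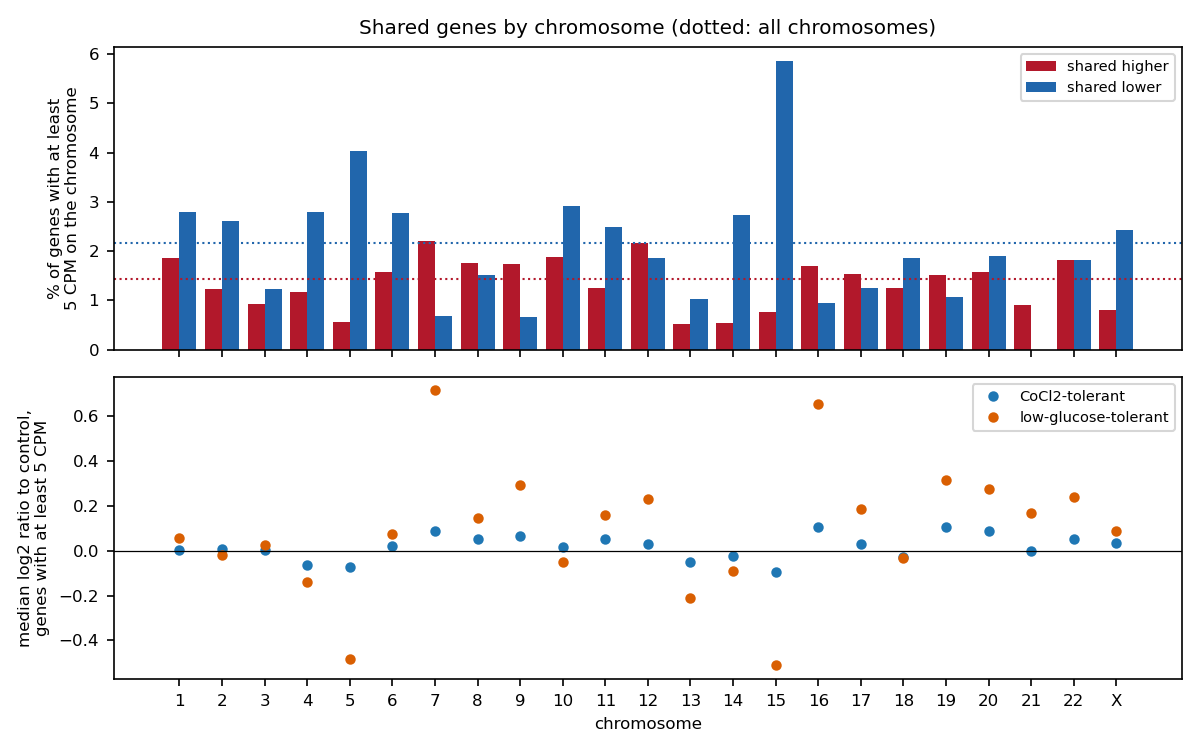
Upper panel: shared higher (red) and lower (blue) genes as a percentage of genes with at least 5 CPM on each nuclear chromosome drawn, with dotted lines for all chromosomes. Lower panel: median log2 ratio to control of the same genes in each tolerant line. Of the chromosomes drawn, lower genes peak on chromosome 15 at 5.85%, where the low-glucose-tolerant median is -0.51.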

How the data were processed

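RNA of 9 libraries was analysed in 3 groups of 3, as labelled. The deposited files hold raw read counts per gene. The submitters' processing notes name featureCounts, DESeq2 and GRCh38 without versions, and which aligner, gene annotation and strand option were used is not given in the sources used here. Symbols were matched for 35938 of 36018 identifiers and 76 more came from GENCODE release 29, which gave positions for 34888 genes. The brefeldin A-tolerant line was not analysed here.

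CPM used the library total times the TMM factor (trimmed mean of M values) as denominator, and the rule was applied to these CPM with the mean of the 6 tolerant libraries as the higher side. Tests used edgeR 4.0.16 in R 4.3.3: filterByExpr, TMM, 1 mean per group over all 9 libraries, a quasi-likelihood test and Benjamini-Hochberg adjustment over all 17902 genes tested, called under 0.05. The common biological coefficient of variation was 12.6%. Alternatives were DESeq2 1.42.0, size factors, library totals, other filters, CPM minimums and folds, a fit restricted to the compared groups, a replicate block and each library left out. Tables and plots came from Python 3.11.15 (pandas 2.3.3, numpy 2.4.6; plots by matplotlib 3.10.9). Intervals are 95% and come from the fitted spread between libraries.

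The members and the gene lists were chosen with earlier results of these data known. Genes are named by a rule: the 15 members per direction with the largest smaller-of-both ratio, up to 4 members per list, the 6 largest direct differences of protein-coding members each way, and the 3 genes on each side of the fold threshold. TXNRD1, NQO1, GCLM, FTL, FTH1, SLC7A5, DUSP6, COL4A1, CD24, CD274, PDCD1LG2, ULBP1, ITGB6, MT-ND5 and members given without values were added after their values were seen. Some genes that the rule names, and the lists that rest on them, are not reported here. The comparison with genes of at least 5 CPM was also chosen then.

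Counts were simulated for 15979 genes, of which only 34, 33 and 33 differed between the tolerant lines, by 1.5-fold, 2-fold and 4-fold. The direct comparison found 47.1% of the 1.5-fold changes, 93.9% of the 2-fold and 100% of the 4-fold ones, and 2.44% of its calls were false. In the data 63.9% of genes tested were called, far more than were changed in the simulation, so these shares need not hold there. Same-numbered libraries of different groups had residual correlations between -0.26 and 0.12, and pairing by number was therefore not assumed. Within each group, every pair of replicates showed more than counting noise.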

Additional observations from a re-analysis of the deposited data

Results flagged for a closer look

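The shared genes were flagged where the tolerant lines differed from each other by the direct test in edgeR. This held for 118 shared higher and 179 shared lower genes, shares close to that of all genes tested. Among the 152 higher genes with at least 5 CPM in each tolerant line it held for 105. The genes listed individually are among the largest differences of protein-coding members, and other named members differ as well. On the log2 scale, CoCl2-tolerant over low-glucose-tolerant, the differences were 4.75 for NRXN3, 4.24 for NPR3, 3.95 for PLAC8, 3.95 for FGFR2 and 3.54 for COL1A1. They were -3.18 for CCND2, -2.99 for LARGE2 and -2.83 for DDIT3. Each of these named genes kept its direction and its call under all alternatives run.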

How the results depend on the processing

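The number of shared genes followed the rule's thresholds. A minimum of 1 CPM gave 281 higher and 511 lower genes, a threshold of 1.5-fold gave 693 and 737, and one of 3-fold gave 40 and 74. Library totals gave 152 and 273. Leaving out each library in turn gave 162 to 184 higher and 242 to 267 lower genes, and 120 and 205 members met the rule in every such setting. Members that differed between the lines numbered 107 to 123 higher and 160 to 197 lower without 1 library. Genes called against control without 1 library numbered 4463 to 7965 in the CoCl2-tolerant and 11373 to 12903 in the low-glucose-tolerant line. Library totals moved the median of all genes in the low-glucose-tolerant comparison by about 0.10 on the log2 scale. With the replicate block, 116 higher and 174 lower members differed between the lines, and 6091 and 12118 genes were called against control, within 1.5 times of the fit without it.

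Of the direct differences of 95 named genes, 80 kept direction and call in every alternative. The others were HMOX1, DDIT4, NEDD9, FUT9, BGN, HMCN1, PLAUR, FASN, FADS2, PLCE1, CGN and 4 that changed sign without being called: CHAC1, SLC7A11, FAS and ALDOA. HMCN1 also changed sign. Without 1 library CHAC1 ranged from -0.0599 to 0.211, SLC7A11 from -0.334 to 0.0587, HMCN1 from -0.19 to 0.72, FAS from -0.1996 to 0.0448 and ALDOA from -0.0185 to 0.196, and with library totals FAS was 0.0018. The cause was not tested. Depth limits the lower members with few counts left, such as RASL12 and ACTC1.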

Other observations

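Some shared genes outside the lists were picked after their values were seen. The neighbouring genes of the immune checkpoint ligands PD-L1 and PD-L2 were both shared higher. CD274 (PD-L1) had 6.72, 6.47 and 5.27 CPM in control, 22.2, 25.4 and 24.01 CPM in CoCl2-tolerant and 15.9, 18.5 and 13.6 CPM in low-glucose-tolerant libraries. PDCD1LG2 (PD-L2) had 3.15, 2.67 and 2.35 CPM in control, 5.38, 6.13 and 5.297 CPM in CoCl2-tolerant and 8.396, 8.36 and 7.27 CPM in low-glucose-tolerant libraries. Between the tolerant lines CD274 was higher in CoCl2-tolerant cells by a log2 fold change of 0.57 (SE 0.14, adjusted p = 0.00203) and PDCD1LG2 higher in low-glucose-tolerant cells, at -0.52 (SE 0.15, adjusted p = 0.00639). ULBP1, a ligand of the activating receptor NKG2D on natural killer cells, averaged 9.32 ± 1.07, 20.5 ± 2.31 and 25.04 ± 1.68 CPM.

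Surface and matrix-processing genes were among the lower members. Of 17 ADAMTS proteases tested, 5 were shared lower and 0 shared higher, and of 26 integrin genes tested, 4 were shared lower and 0 shared higher. Over all genes tested 1.39% were shared lower and 0.927% shared higher. These families were not among those planned for counting and were added later. ITGB6, an integrin chain of epithelia that activates TGF-beta, had 68.8, 69.2 and 69.2 CPM in control, 17.7, 19.8 and 20.7 CPM in CoCl2-tolerant and 9.86, 8.67 and 7.53 CPM in low-glucose-tolerant libraries. CD24, a small surface glycoprotein, averaged 1348 ± 21.9, 665 ± 96.2 and 168 ± 14.1 CPM. MT-ND5 and MT-ND4L, mitochondrially encoded subunits of respiratory complex I, were shared lower as well, and MT-ND5 averaged 5123 ± 642, 1847 ± 405 and 1846 ± 547 CPM. The part of the lower mitochondrial share of counts in the tolerant libraries in these values was not tested.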
